A study of Mus musculus with 24 samples.

Results

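The livers compared here came from mice fed a high-fat diet rich in cis-unsaturated fatty acids (Cis) or in saturated fatty acids (Saturated). All animals were male C57Bl/6 mice, 4 to 6 months old, randomly assigned to their diet and fed for 7 weeks. Total fat supplied 45% of energy in every diet, from canola and palm olein oil for Cis and from cocoa butter for Saturated. The comparison takes 16 of the 24 liver arrays, 8 per diet, and the remaining 8 arrays, from mice on a diet of trans-unsaturated fat (Trans, from partially hydrogenated soy oil), share the estimate of spread. Each liver was measured on a whole-transcript expression array and came from a separate mouse, and no livers from a low-fat diet were analysed here. The tables cover 18820 genes, taken from the 21218 probe sets that name a single gene, out of 35556. The question was which liver genes differ when cis-unsaturated fat replaces part of the saturated fat. In bulk liver, fewer cells of a type and less RNA per cell cannot be told apart.

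Hepatocytes make cholesterol from acetyl-CoA by way of mevalonate and squalene. The genes of this pathway are switched on by SREBP2, which is carried by SCAP from the endoplasmic reticulum to the Golgi for cleavage when membrane sterol is low, while INSIG proteins hold it back. The related SREBP1 drives fatty acid synthesis. Fatty acids also bind the nuclear receptor PPARα, which switches on genes of fatty acid oxidation in liver. Double bonds in cis need auxiliary enzymes before β-oxidation can continue.

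Signals below are the deposited log2 values brought back to the linear scale, and differences are Cis minus Saturated on the log2 scale, ± standard error, from limma with all 24 livers. The adjusted p is the Benjamini-Hochberg value over all probe sets, and genes were called where it was under 0.05. The 8 hepatocyte markers analysed had a summed signal from 36159 to 38098 in the Cis livers and from 36335 to 40174 in the Saturated livers, led by Alb, Apoa1 and Ttr. Saturated replicate 2 stood apart from the other 7 Saturated livers in genes of cholesterol and fatty acid synthesis, where it was the lowest of its group, and Cis replicate 7 was the lowest Cis liver in the same lists. The counts over all genes, the medians for these genes and those of several other lists are therefore given with and without Saturated replicate 2. The medians for these genes are also given without Cis replicate 7, a choice made after the values were seen. For a gene in which Saturated replicate 2 is the lowest of its group, leaving it out makes the difference more negative by construction. The larger falls without that liver, and the call of Fabp5 below, are therefore no independent support.

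No gene was called between Cis and Saturated over the 24 livers with limma (0 of 18820, 0% in either direction), and Tukey's post hoc test gave 0 after the same adjustment. At an unadjusted p under 0.05 there were 653 genes higher (3.47% of all genes) and 643 lower (3.42%) in Cis, and the median difference over all genes was 0.0036. With each array centred on its median instead, the split was 881 higher and 457 lower (65.8% higher, against 50.4%). A fold above 1.5 was seen for 52 genes, 15 higher and 37 lower. The smallest adjusted p among the genes was 0.169, for Mgll. Without Saturated replicate 2, limma called 1 gene, Fabp5, which was lower in Cis (0.00531% of all genes lower, 0% higher), and the counts at an unadjusted p under 0.05 were 706 higher (3.75%) and 641 lower (3.41%), together 7.16%. The plot of difference against unadjusted p shows both fits.

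**Figure D1:**
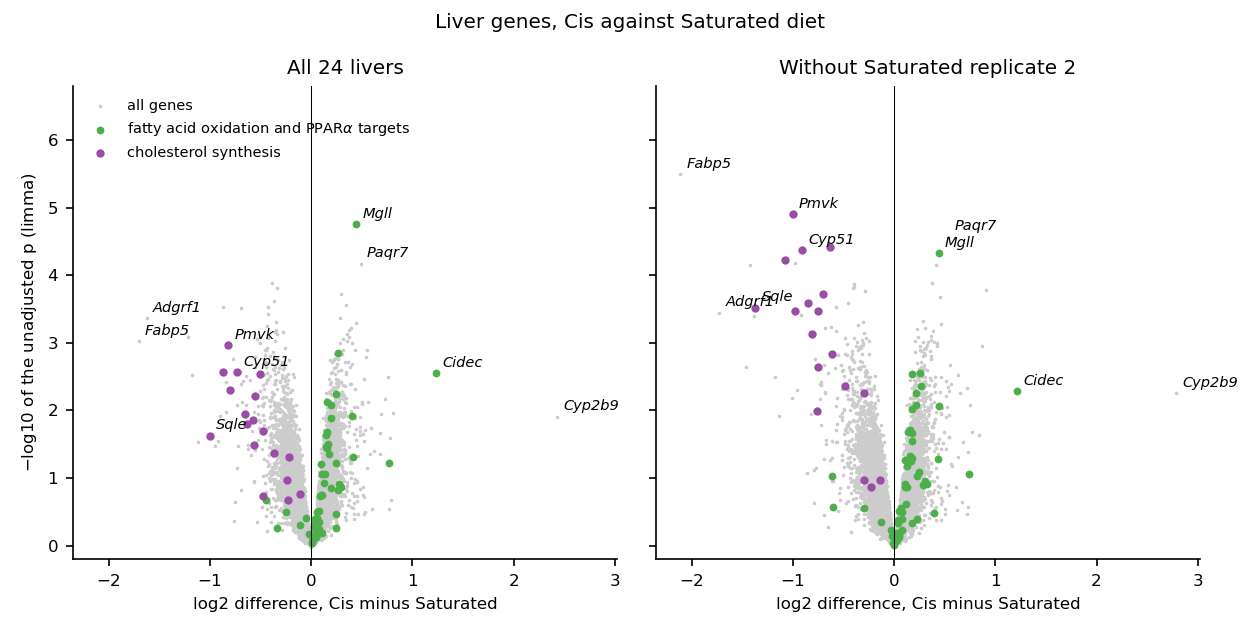
Log2 difference Cis minus Saturated (x axis) against −log10 of the unadjusted limma p (y axis) for 18820 genes, over all 24 livers (left) and without Saturated replicate 2 (right). Purple points are the 18 genes of cholesterol synthesis, green points genes of fatty acid oxidation and PPARα targets; all purple points lie left of 0 in both panels, and Fabp5 is at −1.70 on the left and −2.11 on the right.

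Genes of cholesterol synthesis had lower means in the Cis livers at every step analysed. Of the 8 genes analysed from HMG-CoA synthase to squalene synthase, 8 had a lower mean, 5 of them (62.5%, against 3.42% of all genes) at an unadjusted p under 0.05, and the median difference was −0.56. Of the 10 genes from squalene to cholesterol, 10 had a lower mean, 9 (90%) at an unadjusted p under 0.05, and the median was −0.54. None of the 18 was called with limma (smallest adjusted p = 0.502, Pmvk). The counts describe a list chosen with earlier results of these data known, and are not independent evidence of its direction.

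In the mevalonate arm, the signal of Pmvk, phosphomevalonate kinase, ran from 85.4 to 187 (median 151) in the Cis livers and from 105 to 439 (median 289) in the Saturated livers, a difference of −0.82 ± 0.22 (adjusted p = 0.502). Only Saturated replicate 2, at 105, brought the Saturated livers into the lower part of the Cis range, and 7 of 8 Cis livers lay below the lowest of the other 7, at 185. Idi1, which isomerizes isopentenyl diphosphate, had signals from 155 to 441 (median 238) in the Cis livers and from 193 to 771 (median 463) in the Saturated livers, with a difference of −0.80 ± 0.26 (adjusted p = 0.630). Here too 7 Cis livers lay below the other 7 Saturated livers. Fdps, the synthase of farnesyl diphosphate, had a difference of −0.63 ± 0.24 (adjusted p = 0.670), Hmgcs1, the HMG-CoA synthase of the cytosol, one of −0.57 ± 0.25 (adjusted p = 0.726) and Fdft1, squalene synthase, one of −0.55 ± 0.18 (adjusted p = 0.638). The Hmgcs1 signals ran from 415 to 1102 (median 597) in the Cis livers and from 378 to 1591 (median 1110.0) in the Saturated livers, so that 0 of 8 Cis livers lay below the Saturated minimum. The differences that did not reach an unadjusted p under 0.05 were those of the kinase Mvk (−0.23), the decarboxylase Mvd (−0.47) and the geranylgeranyl diphosphate synthase Ggps1 (−0.24), whose product leaves the cholesterol branch. Each depended on single livers. Mvd was at −0.77 without Saturated replicate 2 and −0.29 without Cis replicate 7, Mvk at −0.10 without Saturated replicate 3 and Ggps1 at −0.12 without Cis replicate 8.

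In the sterol arm, Cyp51, the lanosterol demethylase, had signals from 154 to 392 (median 243) in the Cis livers and from 177 to 644 (median 435) in the Saturated livers, and a difference of −0.73 ± 0.22 (adjusted p = 0.579). Without Saturated replicate 2 the groups no longer overlapped, since the lowest of the other Saturated livers was 400.1. That separation was shared by 6 of all genes in this direction (0.0319%). Lss, which closes the sterol ring system, had signals from 62.8 to 210.0 (median 128) in the Cis livers and from 85.4 to 391 (median 251) in the Saturated livers, and a difference of −0.87 ± 0.26 (adjusted p = 0.579). Tm7sf2, a sterol reductase, had a difference of −0.51 ± 0.15 (adjusted p = 0.579) and a narrow Cis range, from 293 to 517 (median 335). Sqle, squalene epoxidase, had the largest difference of the 18, −1.003 ± 0.41 (adjusted p = 0.698), and also the largest standard error. Its signal was 40.5 in Saturated replicate 2 against 243 to 446 in the other 7. Nsdhl (−0.66), Msmo1 (−0.58), Dhcr7 (−0.47) and Hsd17b7 (−0.37), enzymes of demethylation and reduction, had intermediate differences. The smallest were those of Sc5d (−0.22) and the isomerase Ebp (−0.11), the latter not at an unadjusted p under 0.05.

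Without Saturated replicate 2 the median of the 18 genes moved from −0.56 to −0.75, 15 were lower with an unadjusted p under 0.05 and 0 were called (smallest adjusted p = 0.0899, Pmvk). Saturated replicate 2 was the lowest Saturated liver for 16 of the 18 genes. Among the Cis livers, replicate 7 had the lowest list means, −1.26 for the mevalonate arm and −1.32 for the sterol arm relative to the mean of the other 7 Saturated livers, beside −1.23 and −1.28 in Saturated replicate 2. The highest Cis values, −0.21 and −0.22, were within the range of those 7 livers, which reached down to −0.44 and −0.32. Without Cis replicate 7 alone the median of the 18 genes was −0.48, with 10 lower with an unadjusted p under 0.05. With both livers left out (22 livers) it was −0.64, with 15 lower with an unadjusted p under 0.05 and 0 called.

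**Figure D2:**
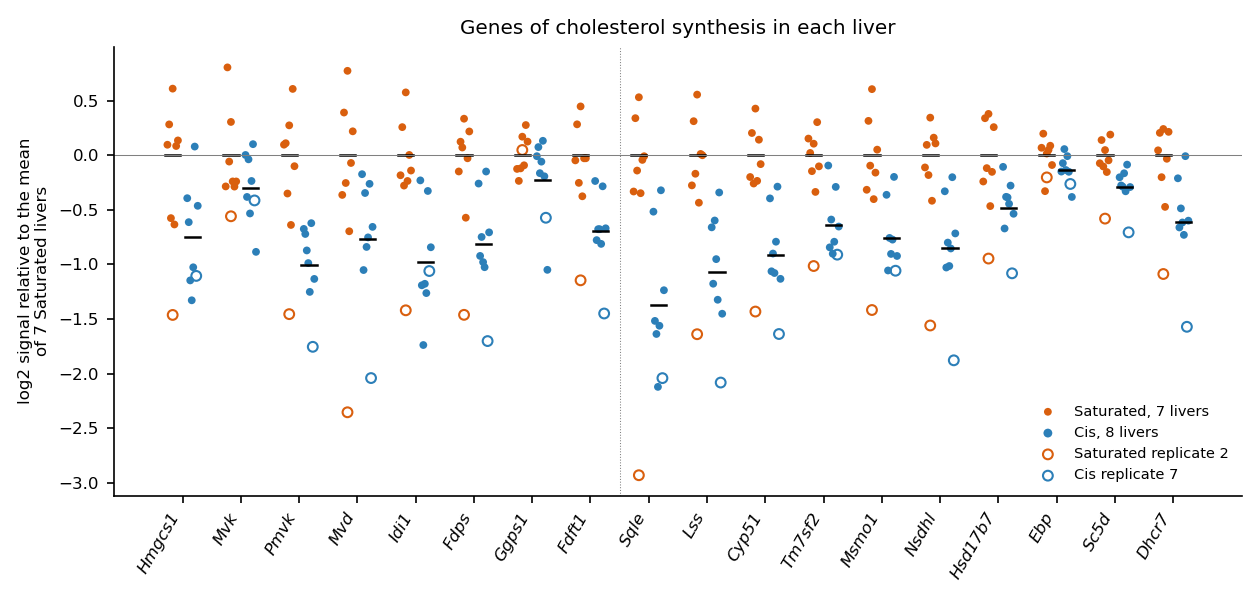
Log2 signal of 18 cholesterol synthesis genes in single Saturated and Cis livers, relative to the mean of 7 Saturated livers (y axis), with the mevalonate arm left of the dotted line. Filled points are livers, bars are means of 7 Saturated and of 8 Cis livers, and open circles are Saturated replicate 2 and Cis replicate 7, the former being the lowest Saturated liver for 16 genes.

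The sequences before the starts of these genes are shown because their means lay lower together. RefSeq promoters (GRCm38.p6, 250 bases before to 50 after the start) were in the table used here for 15 of the 18 genes, with 18 promoters. The letters CCAAT, bound by NF-Y, were searched on either strand, and lay in 15 of the 18 promoters (83.3%) and in each of the 15 genes, against 37.4% of all 32851 promoters. The core of the sterol regulatory element, TCACNCCAC on either strand, lay in 1 of the 18 (5.56%), that of Hmgcs1, against 1.24% of all. A match is only a match of letters. The 250 bases before the start follow for Hmgcs1, which holds both motifs, and for Pmvk, Idi1, Lss, Cyp51 and Tm7sf2, the members of smallest p that had an entry, in the direction of transcription. Capitals mark CCAAT, its complement on the other strand, and the sterol element core, which do not overlap in these windows. They lie at chr13:119690101-119690350, plus strand (Hmgcs1), chr3:89454291-89454540, plus strand (Pmvk), chr13:8885356-8885605, plus strand (Idi1), chr10:76531355-76531604, plus strand (Lss), chr5:4104698-4104947, minus strand (Cyp51), and chr19:6067851-6068100, minus strand (Tm7sf2). In the windows with a single match, its first base lay 136 bases before the start in Pmvk, 62 in Lss, 47 in Tm7sf2 and 29 in Cyp51.
Hmgcs1: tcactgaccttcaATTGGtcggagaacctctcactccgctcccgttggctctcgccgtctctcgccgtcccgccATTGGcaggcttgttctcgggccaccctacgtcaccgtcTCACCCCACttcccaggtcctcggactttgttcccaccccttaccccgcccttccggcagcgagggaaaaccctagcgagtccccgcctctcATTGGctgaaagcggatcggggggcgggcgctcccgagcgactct
Pmvk: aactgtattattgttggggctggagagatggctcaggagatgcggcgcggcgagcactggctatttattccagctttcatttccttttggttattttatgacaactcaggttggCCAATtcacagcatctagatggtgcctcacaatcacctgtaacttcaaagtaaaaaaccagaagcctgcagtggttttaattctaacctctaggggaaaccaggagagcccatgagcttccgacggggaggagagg
Idi1: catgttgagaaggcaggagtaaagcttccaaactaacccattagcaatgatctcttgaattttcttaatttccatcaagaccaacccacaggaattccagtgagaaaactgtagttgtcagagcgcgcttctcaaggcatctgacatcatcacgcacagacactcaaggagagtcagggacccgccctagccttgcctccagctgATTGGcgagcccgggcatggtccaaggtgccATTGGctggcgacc
Lss: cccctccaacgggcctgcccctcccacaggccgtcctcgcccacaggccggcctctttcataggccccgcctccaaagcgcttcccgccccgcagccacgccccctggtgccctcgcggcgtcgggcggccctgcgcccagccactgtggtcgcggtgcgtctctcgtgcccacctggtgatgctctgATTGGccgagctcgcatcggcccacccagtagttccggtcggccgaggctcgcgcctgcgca
Cyp51: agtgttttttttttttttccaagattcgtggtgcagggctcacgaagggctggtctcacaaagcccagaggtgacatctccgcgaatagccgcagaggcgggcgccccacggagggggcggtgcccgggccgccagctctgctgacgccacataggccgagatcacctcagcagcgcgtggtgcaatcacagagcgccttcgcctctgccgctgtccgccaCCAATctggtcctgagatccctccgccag
Tm7sf2: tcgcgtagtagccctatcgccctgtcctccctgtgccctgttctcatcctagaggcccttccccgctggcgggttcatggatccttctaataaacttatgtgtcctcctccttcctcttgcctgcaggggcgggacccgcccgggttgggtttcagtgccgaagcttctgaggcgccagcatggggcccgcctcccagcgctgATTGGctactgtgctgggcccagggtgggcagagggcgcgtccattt

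Of 10 genes of sterol sensing and uptake, 3 (30%, against 3.42% of all genes) were lower in Cis at an unadjusted p under 0.05. At that p 0 were higher (against 3.47% of all genes). With 0 called, the median difference was −0.11. Scap, the SREBP escort, had signals from 269 to 334 (median 283) in the Cis livers and from 305 to 382 (median 358) in the Saturated livers, and a difference of −0.26 ± 0.070 (adjusted p = 0.539). The groups overlapped little, as 6 of 8 Cis livers lay below the lowest Saturated liver, which was not replicate 2. Srebf2, the gene of SREBP2, had a difference of −0.25 ± 0.11 (adjusted p = 0.742) and Stard4, a carrier of cholesterol between membranes, one of −0.33 ± 0.14 (adjusted p = 0.700). Npc2, which passes cholesterol out of the lysosome, had −0.18. For Insig1, itself a target of SREBP, the difference was −0.14 ± 0.20 (adjusted p = 0.934). It was −0.29 without Saturated replicate 2 and −0.022 without Cis replicate 7, the lowest livers of their groups for this gene. The list median was −0.13 without Saturated replicate 2 and −0.051 without Cis replicate 7. Without Saturated replicate 2, Srebf2 was at −0.32 and Scap at −0.28.

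Genes of fatty acid synthesis did not follow a single direction. Over 22 genes the median difference was −0.059, with 1 higher (4.55%) and 2 lower (9.09%) with an unadjusted p under 0.05 and 0 called. Srebf1, the gene of SREBP1, had signals from 298 to 694 (median 444) in the Cis livers and from 216 to 477 (median 294) in the Saturated livers, a difference of 0.53 ± 0.21 (adjusted p = 0.684), opposite in sign to Srebf2. The ranges overlapped, with 4 of 8 Cis livers above the highest Saturated liver. Rdh11, a retinol dehydrogenase that SREBP regulates, had a difference of −0.74 ± 0.26 (adjusted p = 0.639), and Acss2, which makes acetyl-CoA from acetate, one of −0.56 ± 0.25 (adjusted p = 0.743). The fatty acid synthase Fasn and the carboxylase Acaca had differences near 0 with wide errors, 0.093 ± 0.34 and −0.077 ± 0.22. Scd1, the main liver desaturase, had −0.034. Fasn signals ran from 364 to 2169 (median 1498) in the Cis livers and from 327 to 2477 (median 1414) in the Saturated livers. These values depended on Saturated replicate 2, in which Fasn was 327 against at least 813 in the others. Without it Fasn was at −0.18, Acaca at −0.24 and the list median at −0.20. Of the 22 genes 5 were then lower and 1 higher at an unadjusted p under 0.05, against 3.41% and 3.75% of all genes. Cis replicate 7 held the lowest Cis value of Fasn and Acaca, and without it alone the list median was 0.041 and Fasn was at 0.36. With both livers left out the list median was −0.087 and Fasn was at 0.084.

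Of 16 desaturases and elongases, 13 had a lower mean in Cis (median −0.059), 1 of them at an unadjusted p under 0.05 (6.25%) and 0 called. This was Elovl2, an elongase of polyunsaturated fatty acids, with signals from 1343 to 2043 (median 1931) in the Cis livers and from 1872 to 2869.9 (median 2159) in the Saturated livers, and a difference of −0.26 ± 0.086 (adjusted p = 0.638). In 3 of 8 Cis livers it lay below the lowest Saturated liver. The list median was −0.10 without Saturated replicate 2 and −0.029 without Saturated replicate 8. Without Saturated replicate 2, 2 of the 16 genes were lower at an unadjusted p under 0.05, against 3.41% of all genes. Scd2, a desaturase with low expression in liver, had −0.42, and −0.56 without Saturated replicate 2.

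The gene with the largest difference among those of fatty acid uptake and binding was Fabp5, a fatty acid binding protein better known from skin and adipose tissue. Its signal ran from 8.57 to 48.7 (median 28.1) in the Cis livers and from 12.1 to 184 (median 107) in the Saturated livers. Saturated replicate 2, at 12.1, was within the Cis range, and the other 7 Saturated livers, from 76.1 upward, all lay above the 8 Cis livers. With that liver left out, 6 of all genes were apart in this direction (0.0319%). The difference was −1.70 ± 0.45 (adjusted p = 0.502), and −2.11 without Saturated replicate 2 (adjusted p = 0.0382, called). Over the other settings and left-out livers the adjusted p of Fabp5 ran from 0.0185 to 1. The call was lost when array weights were added, when only the Cis and Saturated livers were fitted, or when Cis replicate 7 was left out as well (difference −2.06, adjusted p = 0.0959).

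Fabp5 is measured by 3 probe sets, and limma called all 3 without Saturated replicate 2. The second probe set gave nearly the same signals, from 8.69 to 49.5 in Cis and from 10.8 to 191 in Saturated. The third was weak, from 6.96 to 9.60 in Cis and from 8.51 to 15.4 in Saturated, and had the smallest adjusted p of all probe sets over the 24 livers, 0.0837 (difference −0.58 ± 0.095). Whether the 3 share sequence or one reads a copy of the gene was not tested, so they are not independent measurements.

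Of the 17 genes of uptake and binding, 2 were higher and 2 lower with an unadjusted p under 0.05 (11.8% each), and the median was 0.047. Besides Fabp5 the lower gene was Acsl4, an acyl-CoA synthetase that prefers arachidonate, with a difference of −0.41 ± 0.15 (adjusted p = 0.642). The higher genes were Slc27a4, a fatty acid transport protein, at 0.20 ± 0.080 (adjusted p = 0.695), and Fabp7, at 0.40 ± 0.19 (adjusted p = 0.759). Cd36, the scavenger receptor that takes up fatty acids, had signals from 319 to 605 (median 393) in the Cis livers and from 199 to 552 (median 355) in the Saturated livers, and a difference of 0.30 ± 0.19 (adjusted p = 0.843). In 3 of 8 Saturated livers it lay below the lowest Cis liver, and 1 Cis liver, replicate 6, lay above the highest Saturated liver. Without Saturated replicate 3 the difference of Cd36 was 0.19.

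**Figure D3:**
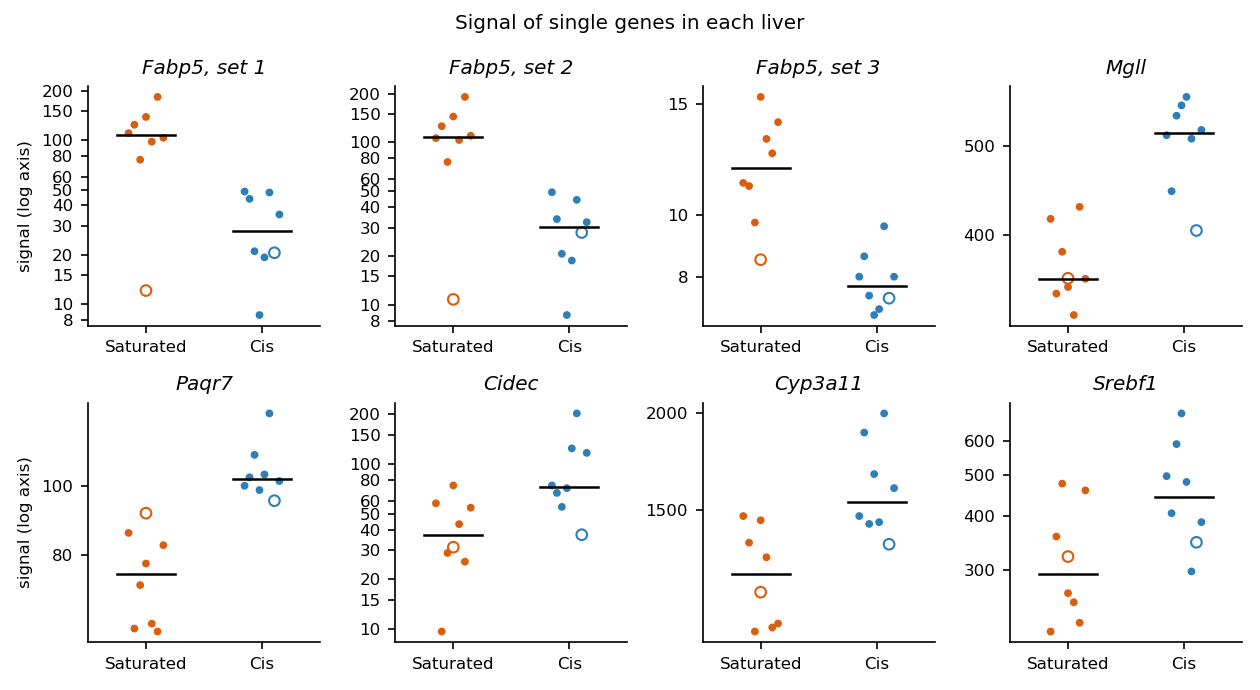
Signal (log axis) of the 3 probe sets of Fabp5 and of Mgll, Paqr7, Cidec, Cyp3a11 and Srebf1 in each of the 8 Saturated and 8 Cis livers. Points are livers, bars are medians of all 8 livers, and open circles are Saturated replicate 2 and Cis replicate 7. For all 3 probe sets of Fabp5 Saturated replicate 2 lies within the Cis range.

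Genes of fatty acid oxidation had slightly higher means in the Cis livers. Of 7 auxiliary enzymes for unsaturated fatty acids, 7 had a higher mean (median 0.13), 3 of them (42.9%, against 3.47% of all genes) at an unadjusted p under 0.05. Decr1, the mitochondrial dienoyl-CoA reductase, had signals from 560.1 to 705 (median 638) in the Cis livers and from 464 to 651 (median 563) in the Saturated livers, and a difference of 0.19 ± 0.072 (adjusted p = 0.651). In 4 of 8 Cis livers it exceeded every Saturated liver. Ech1, a dienoyl-CoA isomerase, had 0.16 ± 0.071, Hsd17b4, the peroxisomal bifunctional enzyme, 0.15 ± 0.061, and Decr2, the peroxisomal reductase, 0.095 ± 0.049. None was called.

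For the carnitine shuttle and mitochondrial β-oxidation, 17 of 17 genes had a higher mean (median 0.075), 5 (29.4%) at an unadjusted p under 0.05 and 0 called. The largest of these was Slc25a20, the carnitine carrier of the inner membrane, with signals from 403 to 459.7 (median 427) in the Cis livers and from 326 to 430.1 (median 343) in the Saturated livers, and a difference of 0.24 ± 0.080 (adjusted p = 0.630). Cpt2, which reforms acyl-CoA in the matrix, had signals from 332 to 444 (median 384) in the Cis livers and from 301 to 370.1 (median 328) in the Saturated livers, and a difference of 0.19 ± 0.068 (adjusted p = 0.639). The Cis and Saturated ranges overlapped for both, although 6 of 8 Cis livers lay above every Saturated liver for Cpt2. Acad11 (0.16) and Acads (0.16), acyl-CoA dehydrogenases, were similar in size. Of 13 peroxisomal genes, 9 had a higher mean (median 0.059) and 3 (23.1%) were higher at an unadjusted p under 0.05, Hsd17b4 being counted in this list as well. Acaa1b, a thiolase, had a difference of 0.27 ± 0.074 (adjusted p = 0.556), and Acox2, an oxidase of branched chains and bile acid intermediates, one of 0.17 ± 0.082 (adjusted p = 0.755). Against the others, Abcd2, a peroxisomal transporter of very long chains, had −0.25 ± 0.25. Saturated replicate 2 lay within the range of its group in the means of these 3 lists, and without it their medians were 0.16, 0.076 and 0.078. Without Saturated replicate 4 the peroxisomal median was 0.029, and without Cis replicate 7 Abcd2 was at −0.11.

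Among 21 other PPARα targets and fasting hormones, 19 had a higher mean in Cis (median 0.19), 5 (23.8%) at an unadjusted p under 0.05. Mgll, the lipase of monoglycerides, stood first among all genes by p, with signals from 404 to 565 (median 517) in the Cis livers and from 327 to 429 (median 358) in the Saturated livers. In 7 of 8 Cis livers Mgll lay above every Saturated liver, and the difference was 0.45 ± 0.083 (adjusted p = 0.169). Vnn1, a pantetheinase, had signals from 301 to 489 (median 362) in the Cis livers and from 184 to 366 (median 292) in the Saturated livers, and a difference of 0.40 ± 0.15 (adjusted p = 0.642). Cidec, a protein of large lipid droplets, had one of the largest differences of the table, 1.23 ± 0.37 (adjusted p = 0.579), with signals from 37.3 to 203 (median 72.8) in the Cis livers and from 9.67 to 74.2 (median 37.3) in the Saturated livers. The lowest Saturated liver for Cidec was replicate 3, and 4 Cis livers lay above the Saturated range. Fgf21, a hormone of the fasted liver, went against the list at −0.45 ± 0.35, and at −0.24 without Cis replicate 3.

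In the list of 23 lipid droplet proteins and lipases, which also holds Mgll and Cidec, 6 (26.1%) were higher and 1 (4.35%) lower with an unadjusted p under 0.05, with a median of 0.096, which was 0.061 without Cis replicate 2. Fitm1, which helps bud droplets from the endoplasmic reticulum, had signals from 688 to 1005 (median 845) in the Cis livers and from 468 to 927 (median 662) in the Saturated livers, and a difference of 0.33 ± 0.12 (adjusted p = 0.642). Hsd17b11, a droplet-bound dehydrogenase, had a difference of 0.18 ± 0.072 (adjusted p = 0.670). On the lower side were Abhd5, the coactivator of adipose triglyceride lipase, at −0.15 ± 0.069 (−0.10 without Cis replicate 8), and Plin3, a droplet coat protein, at −0.23 ± 0.11, not at an unadjusted p under 0.05. The adipocyte markers analysed had a higher mean in 7 of 7, with a summed signal from 4894 to 5725 in Cis and from 4245 to 5355 in Saturated, nearly all of it Car3, and the defining markers Adipoq and Lep had mean signals of 4.74 and 4.59. Their part in the result was not tested.

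Cytochromes P450 of the Cyp2 and Cyp3 families, which oxidize drugs, steroids and fatty acids, had higher means in 24 of 29 genes (median 0.11), 7 (24.1%) higher and 2 (6.9%) lower with an unadjusted p under 0.05, and 0 called. Without Saturated replicate 6 the median was 0.057. Members of these families are close copies, and shared hybridization between them was not tested. Cyp3a11, the main Cyp3a enzyme of mouse liver, had signals from 1356 to 1998 (median 1538) in the Cis livers and from 1048 to 1475 (median 1241) in the Saturated livers, and a difference of 0.37 ± 0.097 (adjusted p = 0.499). In 4 of 8 Cis livers it exceeded every Saturated liver, and Cis replicate 1 was level with the highest of them. Cyp3a25 had a difference of 0.30 ± 0.093 (adjusted p = 0.598) and Cyp2d26 one of 0.14 ± 0.047 (adjusted p = 0.630). Cyp2r1, a vitamin D hydroxylase, went the other way, with signals from 68.8 to 98.6 (median 87.2) in the Cis livers and from 80.0 to 119.5 (median 106) in the Saturated livers, and a difference of −0.27 ± 0.089 (adjusted p = 0.638). Cyp2b9, named after its values were seen because its difference was the largest of the table, had 2.43 ± 0.90 (adjusted p = 0.642). Its signals spread widely in both groups, from 100.2 to 1184 (median 353) in the Cis livers and from 5.16 to 912 (median 50.3) in the Saturated livers.

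Of 21 genes of bile acid synthesis and transport, 1 was higher and 1 lower with an unadjusted p under 0.05 (4.76% each, median −0.0057). Abcc3, an exporter of conjugated bile acids to blood, had a difference of 0.32 ± 0.11 (adjusted p = 0.638). Cyp27a1, the sterol hydroxylase of mitochondria, had signals from 624 to 841 (median 780.3) in the Cis livers and from 784 to 1045 (median 884) in the Saturated livers, and a difference of −0.22 ± 0.080 (adjusted p = 0.642). Cyp7a1, the rate-limiting enzyme of bile acid synthesis, had −0.36 ± 0.31 (adjusted p = 0.885) with overlapping ranges, and −0.17 without Cis replicate 8.

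Among 21 genes of glucose metabolism and the insulin response, 3 (14.3%) were lower with an unadjusted p under 0.05, 0 were higher, and the median was 0.012. Ppargc1a, a coactivator induced by fasting, had signals from 47.8 to 81.0 (median 59.98) in the Cis livers and from 62.8 to 104 (median 89.0) in the Saturated livers, and a difference of −0.51 ± 0.14 (adjusted p = 0.502). In 5 of 8 Cis livers it lay below every Saturated liver, the lowest of which was replicate 2. Irs2, an adaptor of the insulin receptor, had a difference of −0.51 ± 0.17 (adjusted p = 0.630), and Igfbp1, a secreted protein that insulin represses, one of −0.92 ± 0.39 (adjusted p = 0.707). Igfbp1 was at −1.18 without Saturated replicate 2 and at −0.67 without Cis replicate 7, whose signal of 18.9 was the lowest of its group. Of 16 circadian clock genes (median 0.072, and 0.14 without Saturated replicate 2), 1 was higher (6.25%) and 0 lower with an unadjusted p under 0.05.

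Interferon-stimulated genes had a lower mean in Cis in 20 of 24 (median −0.18), 4 (16.7%) at an unadjusted p under 0.05 and 0 called. Gbp3, a guanylate binding protein, had signals from 25.6 to 58.6 (median 36.8) in the Cis livers and from 40.3 to 59.1 (median 46.5) in the Saturated livers, and a difference of −0.34 ± 0.13 (adjusted p = 0.651). In 6 of 8 Cis livers it lay below every Saturated liver, while the highest Cis liver almost reached the Saturated maximum. Psmb8 (−0.26 ± 0.098) and Psmb9 (−0.23 ± 0.097), subunits of the immunoproteasome, and Ifit2 (−0.33 ± 0.13), a binder of foreign RNA, were the other lower genes. Among Kupffer cell markers 11 of 11 had a lower mean (median −0.21, 0 at an unadjusted p under 0.05), with a summed signal from 1452 to 2474 in Cis and from 1568 to 2713 in Saturated, and T, B and NK cell markers in 10 of 12 (median −0.11), with a summed signal from 66.7 to 83.8 in Cis and from 65.8 to 89.3 in Saturated. Of the T, B and NK cell markers 0 had a mean signal over 20, so their differences are measured at low signal. The part of both marker lists in the interferon values was not tested.

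The medians of the other pathway lists ran from −0.054 for the unfolded protein response and −0.017 for the urea cycle to 0.067 for collagen chains (1 of 18 higher, 5.56%, and 0 lower with an unadjusted p under 0.05) and 0.043 for phase II conjugation. Acute phase proteins had 0.030 and genes of the respiratory chain 0.012, with 1 gene in each direction at an unadjusted p under 0.05 in either list. For cell cycle and DNA replication 0 of 25 genes reached an unadjusted p under 0.05. Only 4 of those 25 genes, and 9 of the 18 collagen chains, had a mean signal over 20. Many differences in these 2 lists are therefore measured at low signal. The median of collagen chains was 0.016 without Cis replicate 6, and that of phase II conjugation −0.0057 without Saturated replicate 6. The plot of the lists sets these beside those described above.

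Markers of other cell types not yet described had 0 genes called, and their part in the results was not tested. Neutrophil markers had the lowest median, −0.22 with 6 of 8 lower, but 0.027 without Saturated replicate 8, the highest of its group in their mean. Cholangiocyte markers had a lower mean in 5 of 5 (−0.11), endothelial cell markers in 10 of 12 (−0.071), activated stellate cell markers in 8 of 10 (−0.039) and quiescent stellate cell markers in 5 of 8 (−0.075). None of these 5 lists held a gene at an unadjusted p under 0.05. Markers of recruited macrophages had −0.016, and those of exocrine pancreas, smooth muscle and striated muscle 0.063, 0.051 and 0.029. A mean signal over 20 was found for 0 of 8 neutrophil and 1 of 5 cholangiocyte markers. It was found for 1 of 7 markers of exocrine pancreas and 0 of 8 of striated muscle. The medians of these lists are therefore measured at low signal.

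**Figure D4:**
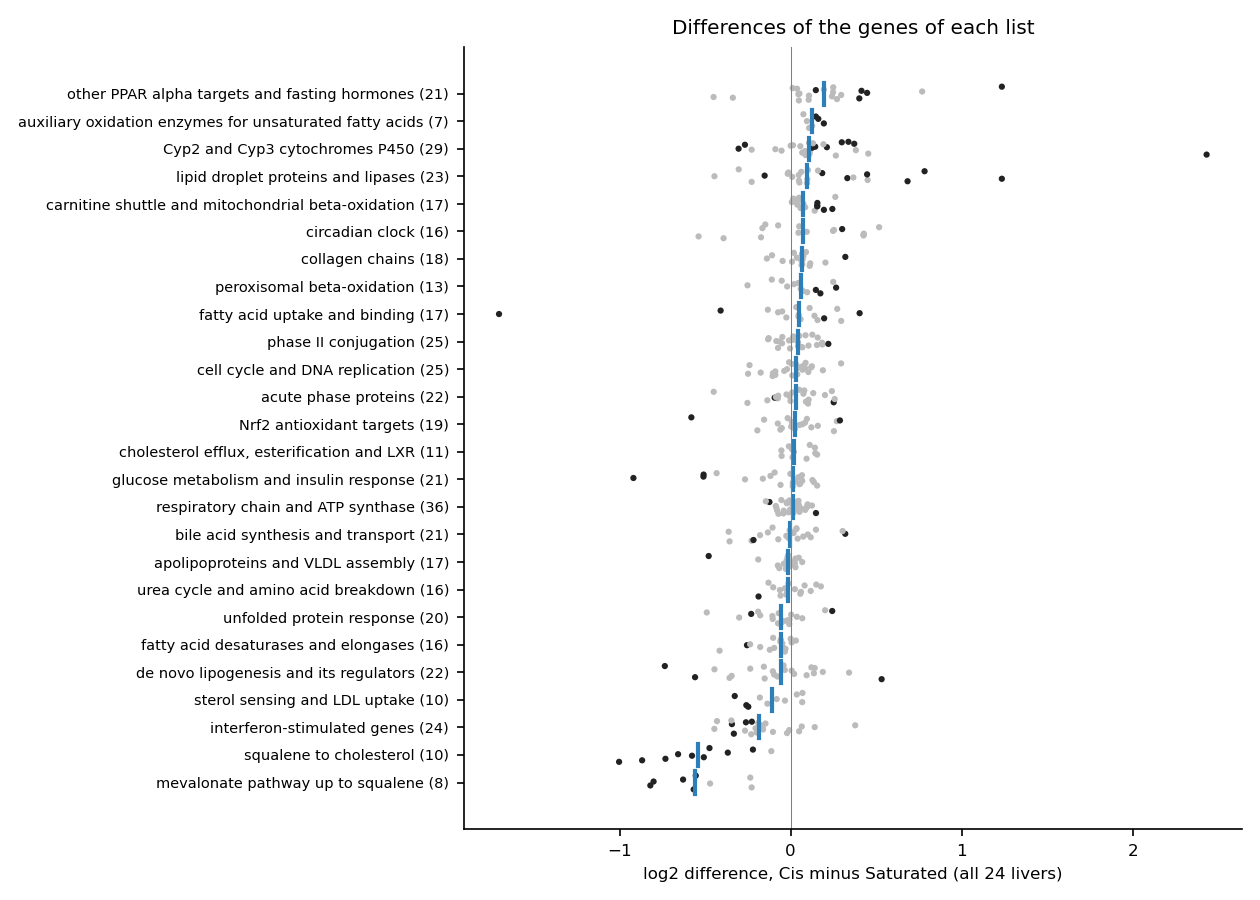
Log2 difference Cis minus Saturated over 24 livers (x axis) for the genes of 26 lists (rows, number of genes analysed in brackets). Points are genes, dark where the unadjusted p is under 0.05, and blue bars are list medians; the rows of cholesterol synthesis, at −0.56 and −0.54, lie farthest from 0.

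Outside these lists, the genes of smallest p with a mean signal over 20 had 0 calls among them. Paqr7, a membrane progestin receptor, had signals from 95.3 to 126 (median 102) in the Cis livers and from 62.7 to 91.5 (median 75.3) in the Saturated livers, without overlap, and a difference of 0.49 ± 0.10 (adjusted p = 0.225). Rprl3, an RNA like that of ribonuclease P, had a difference of 0.29 ± 0.066 (adjusted p = 0.384), and Ces2e, a carboxylesterase, one of 0.39 ± 0.099 (adjusted p = 0.499). Chrna2, a nicotinic receptor subunit, had mean signals of 25.4 in Cis and 18.8 in Saturated, so it passed the minimum of 20 through the Cis and Trans livers. Wdr73, Rmdn3, a tether between mitochondria and endoplasmic reticulum, and Slc25a10, the mitochondrial dicarboxylate carrier, had differences of 0.35, 0.28 and 0.30.

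On the lower side, Pdzk1ip1, a small membrane protein that binds PDZ domains, had −0.87 ± 0.21 (adjusted p = 0.390). Cbfb, the partner of RUNX factors, had signals from 20.1 to 26.8 (median 24.9) in the Cis livers and from 25.8 to 38.3 (median 30.1) in the Saturated livers, and a difference of −0.38 ± 0.084 (adjusted p = 0.384). In 6 of 8 Cis livers it lay below every Saturated liver. The growth factor receptor Fgfr2 had a difference of −0.33, the nucleoporin Nup133 −0.34, the zinc finger proteins Zbtb39 −0.42 and Ikzf5 −0.35, and Gm8995 −0.69. Another probe set of Ikzf5, with a mean signal of 36.1, had a difference of −0.0033, so the lower value rests on 1 of its probe sets. Adgrf1, an adhesion receptor, Wipf1, a WASP-binding protein, and the kinase Map3k8 had mean Cis signals of 10.5, 19.5 and 17.2, under the minimum of 20, which they passed through livers of the other diets, so their differences are no support. Adgrf1 ran from 5.05 to 17.6 (median 10.5) in the Cis livers and from 10.4 to 127 (median 23.6) in the Saturated livers, and only Saturated replicate 6 exceeded 100.

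The 8 Cis and 8 Saturated livers did not overlap for 7 genes, 4 higher (0.0213% of all genes) and 3 lower (0.0159%), which were named after their values were seen. Besides Paqr7 the higher genes were Atp7b, a copper pump, with signals from 63.6 to 71.2 (median 66.8) in the Cis livers and from 55.5 to 63.3 (median 61.3) in the Saturated livers, Pllp, a membrane protein of myelin, and the odorant receptor Olfr510, whose signals stayed under 4. Foxp1, a forkhead repressor, was among the lower genes, with signals from 63.6 to 69.7 (median 67.4) in the Cis livers and from 73.9 to 99.5 (median 79.2) in the Saturated livers, and a difference of −0.28 ± 0.071 (adjusted p = 0.499). The others were Fubp1, a binder of single-stranded DNA, with signals from 101 to 140.4 (median 125) in the Cis livers and from 142 to 161 (median 147) in the Saturated livers, and the zinc finger gene Zfp945. Differences ran from 0.14 for Atp7b to 0.49 for Paqr7 on the higher side, and were −0.26 for Fubp1 and −0.46 for Zfp945 on the lower side. Zfp945 signals ran from 9.55 to 16.9 in the Cis livers and from 17.8 to 23.9 in the Saturated livers. Its mean signal of 18.1 was under the minimum of 20, so its difference is no support.

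Saturated replicate 2 was the lowest Saturated liver in the mean of 9 of 26 lists and the highest in 2, while other Saturated livers were the extreme in 4 to 9 lists each. It lay farthest below the other 7 livers for the sterol arm (−1.28), the mevalonate arm (−1.23) and fatty acid synthesis (−0.97), where Saturated replicate 6 was the next lowest at −0.71. In the whole array it was not set apart, as its median correlation with the other arrays was 0.984, within the 0.975 to 0.986 of the rest. It was the extreme of its group for 29.6% of genes of signal over 20, against 21.3% to 28.8% for the other Saturated livers. The median correlations of the Saturated livers ran from 0.982 to 0.985. Those of Cis replicates 7, 8 and 3 were lower, at 0.979, 0.979 and 0.980, against 0.984 to 0.985 in the other Cis livers. These replicates were the extreme of their group for 37.7%, 29.7% and 38.8% of these genes, against 15.1% to 25.5% for the other Cis livers.

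**Figure D5:**
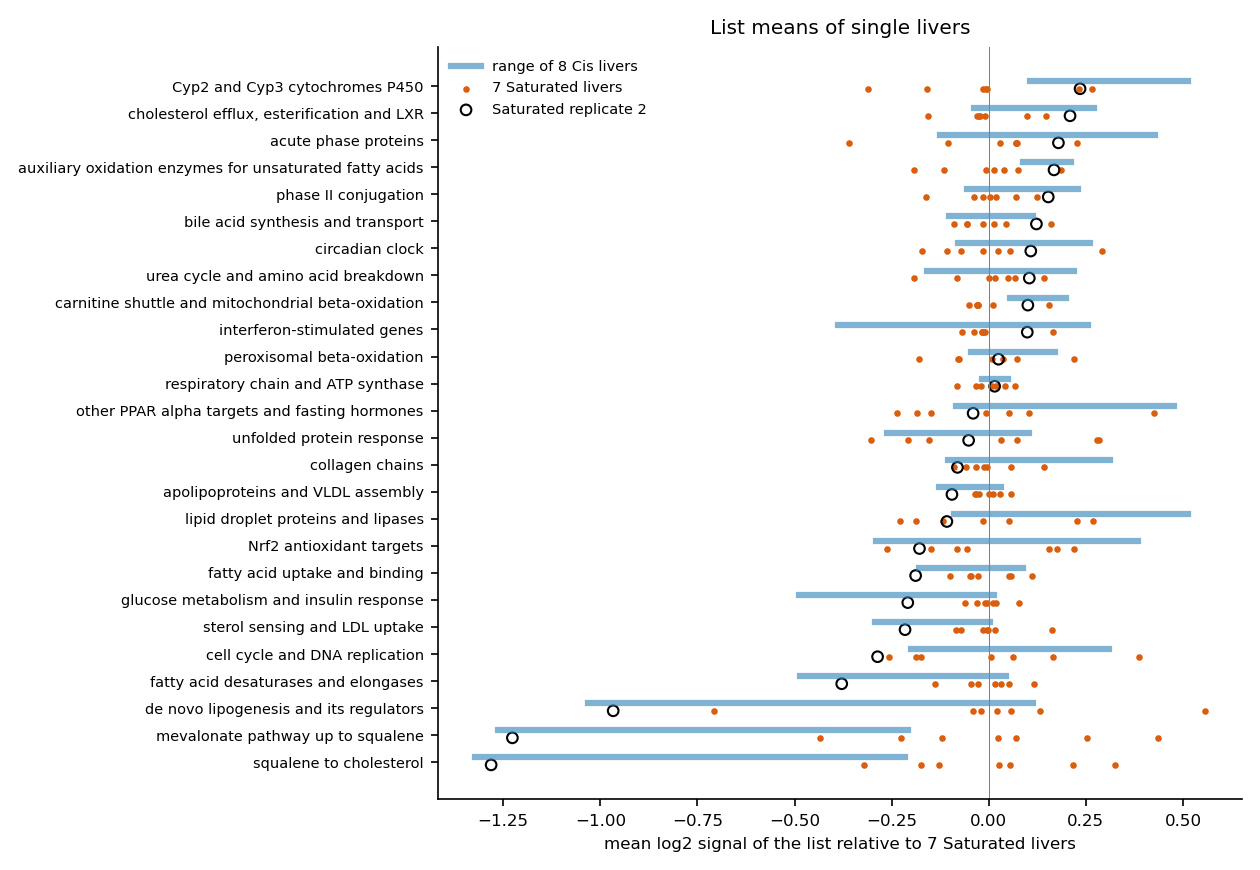
Mean log2 signal of each of 26 lists (rows) in single livers, relative to the mean of 7 Saturated livers (x axis). Orange points are those 7 livers, the open circle is Saturated replicate 2 and blue bars span the 8 Cis livers; Saturated replicate 2 lies at −1.28 and −1.23 in the rows of cholesterol synthesis.

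The Trans livers share the Saturated livers as their control, so the values are only set side by side. Trans signals of Fabp5 ran from 19.2 to 85.5, those of Pmvk from 114 to 208 and those of Mgll from 371 to 557, overlapping the Cis ranges given above. Tested directly, Cis minus Trans was 0.32 for Rprl3 (adjusted p = 0.427), −0.61 for Scd2 (adjusted p = 0.723) and −0.22 for Hsd17b11 (adjusted p = 0.692), none of them called. For Cidec it was −0.34 and for Pmvk −0.092 (adjusted p = 0.934 and 0.977).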

How the data were processed

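RNA from 24 livers, 8 per diet, (100 ng per sample) was measured on Affymetrix Mouse Gene 1.1 ST arrays, 1 per mouse. The authors normalized the scans by the robust multi-array average (RMA), which corrects background, equalizes the arrays by quantiles and summarizes the probes of a set, and deposited them as log2 values (0.309 to 13.46). Quantile normalization makes the arrays alike in distribution, so a shift common to most genes cannot be seen. Versions of the upstream tools are not given in the sources used here. All columns of the table were used. Of 35556 probe sets, 21218 name a single gene, 1881 several and 12457 none in the annotation used. A gene with several probe sets (1386 genes) was given by the set of highest mean.

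Tests were made with limma 3.58.1 under R 4.3.3 (lmFit and eBayes without trend), with the 3 diets in a single fit, a two-sided test of Cis minus Saturated and Benjamini-Hochberg adjustment over all 35556 probe sets, called under 0.05. The fit left 21 residual degrees of freedom. The procedure was tested on simulated data. The mice were separate animals, and the number of arrays limits the precision. No filter on low signal was applied.

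The comparison and the 39 lists (26 of pathways, 13 of cell type markers, 597 of 677 entries analysed) were chosen with earlier results of these data known, and no test was made over a list. Genes named are those of cholesterol synthesis, a fixed set of regulators, the 10 of smallest p in each direction with a mean signal over 20, in each list described up to 4 of smallest p and up to 2 against its median, and the gene called without Saturated replicate 2. Cyp2b9 and the genes whose ranges did not overlap were named after their values were seen. Replicate numbers did not pair the livers. Alternatives were other scalings, weights, filters, a replicate block, Tukey's post hoc test and leaving out each liver. Leaving out Cis replicate 7 together with Saturated replicate 2, and adding array weights, a signal filter or a fit of the compared groups alone to the fit without Saturated replicate 2, were chosen after seeing the data. Promoter sequences come from RefSeq (GRCm38.p6).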

Additional observations from a re-analysis of the deposited data

Results flagged for a closer look

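In 33 of 264 sets of 8 livers examined (22 for single genes, 11 for list means), the lowest or highest liver stood so far from the next that the gap, as a share of the whole range of its group, exceeded the 95% critical value of Dixon's test. Chance alone gives about 1 in 20 such groups, and genes of a pathway share their livers, so the counts are not independent.

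Saturated replicate 2 accounted for 10 of these. It was the lowest Saturated liver, by 0.746 of the range for Sqle, 0.676 for Fabp5, 0.631 for Cyp51, 0.600 for Nsdhl, 0.582 for Insig1, 0.572 for Idi1, 0.554 for Sc5d, 0.549 for Lss and 0.530 for Mvd, and by 0.597 for the mean of the list from squalene to cholesterol. Cis replicate 7 accounted for 9, as the lowest Cis liver, by 0.700 for Fasn, 0.620 for Acaca, 0.617 for Elovl2, 0.606 for Sc5d, 0.583 for Insig1, 0.539 for Dhcr7 and 0.530 for Mvd, and by 0.651 and 0.575 for the means of the lists of glucose metabolism and fatty acid synthesis. Both livers were thus low in genes of lipid synthesis within their own diet group.

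Cis replicate 6 was the highest Cis liver for Cd36 (0.555) and for the means of interferon-stimulated genes (0.586), Nrf2 antioxidant targets (0.558), acute phase proteins (0.548) and the cell cycle (0.528), and the lowest for Cyp27a1 (0.612). Saturated replicate 8 stood above its group in neutrophil markers (0.916) and adipocyte markers (0.556). Saturated replicate 6 was highest for Elovl2 (0.533) and lowest for Rmdn3 (0.527), and Cis replicate 3 was highest for Wipf1 (0.564) and lowest for Zfp945 (0.758). The mean of the Cyp2 and Cyp3 genes was set apart in Cis replicate 4 (0.560, highest) and that of cholangiocyte markers in Cis replicate 8 (0.538, highest).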

How the results depend on the processing

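Counts, medians of 39 lists and differences of 93 genes were recomputed under 39 settings. Of the counts 148 stayed within 1.5 times the value reported and 6 did not. The number called lower was 1 without Saturated replicate 2 (0 to 1 over the left-out livers) and 2, Fabp5 and Pmvk (adjusted p = 0.0473), when probe sets with a mean signal of 20 or less were removed as well, while 0 were called higher under every setting. At an unadjusted p under 0.05, 292 genes were higher with that signal filter, 353 with the filter and without Saturated replicate 2, and Tukey's test gave 313 higher and 282 lower. The filters test fewer genes, and the cause of the other shifts was not tested. Over the left-out livers these counts ran from 540 (without Saturated replicate 6) to 714 higher and from 532 (without Saturated replicate 6) to 742 lower. Of the list medians 1352 moved by less than the spread between livers, and 1 moved further, sterol sensing, to −0.225 with the filter and without Saturated replicate 2. Over the left-out livers the median of the mevalonate arm ran from −0.76 to −0.46 and that of the sterol arm from −0.69 to −0.47. Without Saturated replicate 2 the medians were 0.22 for other PPARα targets, 0.084 for lipid droplet proteins and 0.13 for the Cyp2 and Cyp3 families. They were −0.16 for interferon-stimulated genes, 0.042 for uptake and binding, 0.036 for bile acids and −0.015 for glucose metabolism. The medians of 13 lists changed sign under 1 to 16 settings, 12 of them within 0.06 of 0 as reported and the other that of neutrophil markers (−0.22). Those of cholesterol synthesis kept their sign under all settings run. Among the 93 genes the sign changed for Fasn and Acaca, neither called. Fasn (0.093) was −0.18 without Saturated replicate 2, alone, with the filter or with only the compared groups, −0.067 without it with array weights, −0.011 without Cis replicate 4 and 0.357 without Cis replicate 7. Acaca (−0.077) was −0.24 without Saturated replicate 2, 0.063 without Cis replicate 7 and 0.056 without Saturated replicate 8. With the replicate number as a block 0 genes were called, and 630 were higher and 653 lower with an unadjusted p under 0.05. Livers of the same number correlated by −0.095 to 0.29 in their deviations, over 0.1 in 10 of 24 pairs, and 1 of 8 Cis livers was closest to its own number among the Saturated livers, so the numbers were not taken as pairs. Genes of low signal are measured near background, which limits what their differences show.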
